A study of Mus musculus with 24 samples.

Results

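Vascular smooth muscle cells are the contractile cells that wrap arteries and arterioles. Here they were picked cell by cell from droplet 3′ RNA libraries of mouse brain, by their counts of UMIs (unique molecular identifiers, which count captured RNA molecules). A cell was taken when it held at least 4 UMIs of Acta2, at least 2 of Myh11 and Tagln together, none of Kcnj8 and at most 1 of Cldn5. It first had to pass with at least 1000 UMIs, at least 500 detected genes and at most 20% mitochondrial UMIs. The rule took 2415 cells of 103715 that passed, from 127901 barcodes. Because these genes chose the cells, their levels are given as a description and were not tested.

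The series compared trained with untrained mice in the motor cortex and the dorsal striatum, after learning of a forelimb reaching movement. Cortical mice were Fos-CreER::Ai9 and striatal mice Arc-CreER::Ai9, lines in which 4-hydroxytamoxifen (4-OHT) marks cells that use the Fos or Arc promoter with the Ai9 tdTomato reporter. Early mice had trained for 2 days and late mice for 8 days, control mice received 4-OHT without training, and tissue was taken 3 days after the labelling. All mice, controls included, thus carried a CreER driver and the reporter and had been given 4-OHT. Each library held 1 hemisphere pooled from 2 mice, and a pool of mice (both hemispheres together) is the replicate used here, with 2 pools per region and stage and 12 in all. Counts were read for 23 of 24 libraries. For 1 striatal control pool, replicate 1, the left hemisphere alone was analysed here. Region and driver line cannot be told apart, because each region came from 1 line.

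Smooth muscle cells contract when calcium and calmodulin activate myosin light chain kinase, which phosphorylates the regulatory light chain of myosin and lets it pull on actin. Their genes for contractile proteins are driven largely by serum response factor, which binds CArG boxes in DNA together with its partner myocardin. In the brain these cells set the width of arterioles and so local blood flow, while pericytes, the related mural cells, cover the capillaries.

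CArG boxes were looked for in the 300 bases around the RefSeq start of each gene (250 before and 50 after it), on both strands, since the box reads the same way on each. RefSeq windows matched 23 of the 28 contractile genes listed for this work. A full box was found at 3 of the 23, namely Myl9, Myl6 and Vcl, against 1.81% of 27025 genes with a window. With up to 1 G or C allowed among the 6 inner bases, 6 of the 23 (26.1%) held a box, against 11.3% of all genes and 6 of 19 immediate early and dissociation genes (31.6%). These matches are a description of letters only. The 250 bases before the start are shown for 3 genes of the contractile apparatus, with CArG boxes in capitals, because Acta2 chose the cells, Myl9 stood farthest above all other passing cells among genes outside the rule, and Vcl, with a full box, was not above pericytes in most pools. The windows (GRCm38.p6, RefSeq) are chr19:34255374-34255623 on the minus strand for Acta2, chr2:156775214-156775463 on the plus strand for Myl9 and chr14:20929148-20929397 on the plus strand for Vcl.
Acta2: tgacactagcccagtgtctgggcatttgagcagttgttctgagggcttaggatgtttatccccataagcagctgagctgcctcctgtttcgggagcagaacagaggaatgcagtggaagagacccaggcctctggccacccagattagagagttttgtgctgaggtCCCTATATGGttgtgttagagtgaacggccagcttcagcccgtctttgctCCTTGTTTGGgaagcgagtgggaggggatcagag
Myl9: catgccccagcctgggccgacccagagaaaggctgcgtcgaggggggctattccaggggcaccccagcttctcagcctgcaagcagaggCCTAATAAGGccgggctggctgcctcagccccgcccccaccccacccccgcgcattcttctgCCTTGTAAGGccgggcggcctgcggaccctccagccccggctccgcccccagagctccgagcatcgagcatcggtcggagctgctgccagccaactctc
Vcl: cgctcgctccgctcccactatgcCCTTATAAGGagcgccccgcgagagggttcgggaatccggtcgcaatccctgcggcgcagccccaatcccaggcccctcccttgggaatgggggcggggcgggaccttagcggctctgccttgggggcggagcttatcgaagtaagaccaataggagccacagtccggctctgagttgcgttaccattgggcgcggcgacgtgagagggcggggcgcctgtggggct
The 2 boxes of Acta2 begin 84 and 34 bases before the start and each holds 1 G or C in its centre. The full box of Myl9 begins 161 bases before the start, its second box lies 99 bases before it, and the full box of Vcl lies 227 bases before it.

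The smooth muscle cells held 1000 to 31494 UMIs each (median 2209) and 543 to 7678 genes (median 1181), with 100 to 309 cells per pool (median 209.5). Libraries held 5260446 to 30470621 UMIs over all barcodes (median 19779060), and 1 library of motor cortex control replicate 1 held only 3 smooth muscle cells. The kit version (v2 or v3) is not given per library, and pools fell into 2 kit classes by the barcodes they share. Class A held replicate 1 of control and of late in both regions (4 pools), and class B the other 8. Barcodes were shared little: 17 smooth muscle cells had a barcode that also occurred in the other library of their pool, and 80 one that occurred in another pool. In motor cortex control replicate 1, whose title marks a male and a female, Xist was found in 0 of 121 smooth muscle cells, which allows up to 2.48% of cells with a captured UMI and does not limit how many express it, while Y-linked UMIs were in 30.6% of them. In the other 11 pools Xist was in 22.0% to 53.6% of smooth muscle cells. Without this pool the region comparison of genes below gave 400 calls in place of 316, and no stage comparison changed its count of 0.

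The label was checked against markers that the rule did not use. In cells without markers of another type, Myl9 was found in 2179 of 2184 and Tpm2 in 2167 of 2184. Markers of another type were nevertheless carried by 231 of the 2415 cells (9.57%), where a cell counted as marked with UMIs of at least 3 marker genes of a type, or at least 2 for ependymal cells. Most carried markers of neurons (114 cells), astrocytes (61), microglia (53) or ependymal cells (42). Scrublet presumed 59.3% of the 231 to be doublets, against 2.24% of the 2184 others. The marked share ran from 3.56% to 20.9% over pools and was highest in late replicate 1 of the dorsal striatum.

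The 42 cells with ependymal markers went against the label, and all came from the dorsal striatum. Ccdc153 and Tmem212, genes of motile cilia, were found in 42 of the 42, Rsph1 in 41 and Foxj1, the transcription factor of ciliated cells, in 40. These genes are the ependymal markers that chose the 42 cells, so their presence follows from that choice. Myh11, the smooth muscle myosin heavy chain, was found in 2 of the 42, and Tpm2 in 3. Myl9 was found in 28 of the 42, at 223 CPM against 6256 CPM in the other 2373 cells. Tagln, a gene of the rule, was found in all 42. Their Acta2 level was 823 CPM (counts per 1e6 UMIs of the cells) against 11750 CPM in the other 2373 cells. These 42 cells passed the rule on few Acta2 UMIs (median 5.5) and are kept in the counts below. The region results are therefore also given without the 231 marked cells, a choice made after the data had been seen.

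At the edges of the rule the cells shade into neighbouring types. Just outside, 93 cells with 2 or 3 Acta2 UMIs had Myl9 in 85.0% and Tpm2 in 62.4%. Just inside, the 110 cells with 4 or 5 had them in 90.9% and 72.7%. The ciliary gene Ccdc153 was in 28.0% of the former and 20.0% of the latter. At the limit on Myh11 and Tagln together, 68 cells inside with 2 or 3 UMIs had Tpm2 in 61.8% and Ccdc153 in 33.8%. The 51 cells outside with 1 UMI had them in 35.3% and 58.8%. A further 90 cells were left out for 1 to 3 UMIs of Kcnj8, a pericyte potassium channel subunit, and 24.4% of them held Abcc9, its partner subunit. Only 14 cells were left out for 2 or 3 UMIs of Cldn5, an endothelial tight junction gene, and all 14 held Flt1, an endothelial receptor for vascular endothelial growth factor.

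Smooth muscle cells made up a similar share of cells in both regions, between 1.26% and 4.02% of the passing cells of a pool. In the 6 motor cortex pools the lowest share was 1.26%, the median 2.49% and the highest 2.93% (mean 2.38% ± 0.608 SD). In the 6 dorsal striatum pools the lowest was 1.35%, the median 2.12% and the highest 4.02% (mean 2.40% ± 0.961 SD). The ranges overlapped, with 2 striatal pools, control replicate 1 (4.02%) and early replicate 2 (3.00%), above all motor cortex pools. The means differed by -0.0240 percentage points, motor cortex minus dorsal striatum, with p = 0.952 in a two-sided exact permutation test over pools, which could reach 0.00217.

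**Figure D1:**
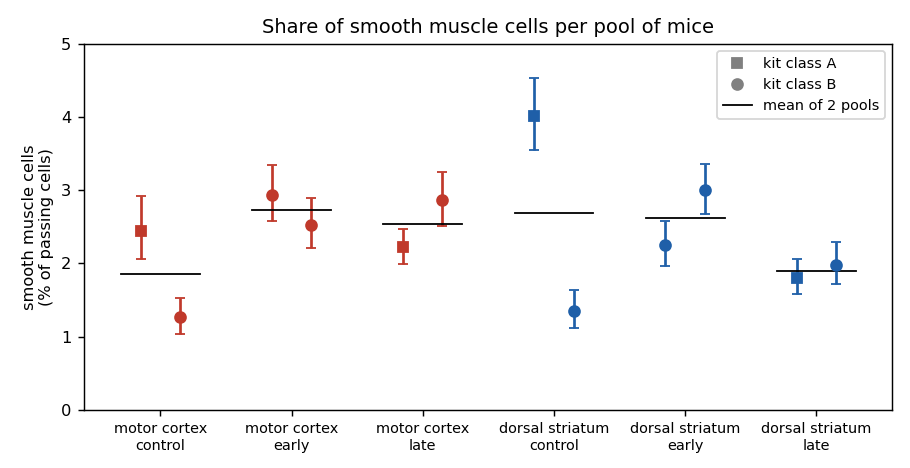
Smooth muscle cells as a percent of passing cells, 1 point per pool with its 95% Wilson interval, which covers counting error only. Black lines are means of 2 pools, squares are kit class A and circles class B. The control pools of each region lie far apart, at 2.45% and 1.26% in motor cortex and at 4.02% and 1.35% in dorsal striatum.

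Between trained and control pools the share of smooth muscle cells did not pass the test, and its difference moved with the pools and cells used. Trained pools had 2.64% ± 0.329 (SD, n = 4) in the motor cortex and 2.26% ± 0.526 (SD, n = 4) in the dorsal striatum, and the 2 control pools had 2.45% and 1.26% in the former and 4.02% and 1.35% in the latter. The difference within regions was 0.179 points, with p = 0.751 (exact permutation test within regions, two-sided). The 8 class B pools alone gave 1.29 points (exact permutation p = 0.0625, the smallest their 16 arrangements can give), and a stricter cell filter gave 0.944 points (exact permutation p = 0.138). Without dorsal striatum control replicate 1, the pool with 1 library, the trained pools stood 0.845 points higher, with an unadjusted p = 0.04 in the same exact permutation test, and without control replicate 2 the difference was -0.487. Within the batches that hold a control and a trained pool of 1 region, trained minus control was 1.67 and 0.900 points for early and -0.231 and -2.21 for late pools, and the 2 batches with both regions gave -0.467 and 0.881 points for motor cortex minus striatum. Contralateral minus ipsilateral shares averaged 0.140 points over the 8 trained pools (exact sign-flip permutation p = 0.594).

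Smooth muscle cells carried most of the listed contractile genes above pericytes, the nearest cell type. Pericytes (2152 cells) had been chosen on Kcnj8, Abcc9 and Vtn with little Acta2, so the contrast between the types follows from the choice of both and was not tested. Of the 28 contractile genes, 3 of which chose the cells, 25 were above pericytes in all 12 pools. Among genes found in at least 25% of smooth muscle cells, this held for 22 of 24 on the list and for 446 of 1359 in all (32.8%). Of the 1359 genes 70 were below in all pools (5.15%). Nothing is read from these counts here because the rule used this contrast. The median log2 ratio to pericytes was 2.81 for all 28 listed genes. It was 0.20 for the 1359 genes found in at least 25% of the cells, which is an unlike set. The 3 genes that chose the cells are among the 22 and the 28, and they alone had a median of 7.64.

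Outside the rule, the genes farthest above all other passing cells were Myl9 (log2 ratio 7.26), Crip1, a small LIM-domain protein (7.16), and Tpm2 (7.12). Mgp, also among the top 30 (4.94), was above pericytes in only 3 of 12 pools.

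Among the motor proteins, Myl9 (ENSMUSG00000067818, chr2:156775420-156781658), the regulatory light chain of smooth muscle myosin, stood at 3278 to 8169 CPM over pools (median 6258), against 319 to 2085 in pericytes. Tpm2, a tropomyosin that lies along the actin filament, stood at 2366 to 5260 CPM (median 4337) against 25.7 to 236. Mylk, the kinase that phosphorylates the light chain, stood at 1264 to 2013 CPM (median 1770) against at most 442. For each of these genes the lowest smooth muscle pool was above the highest pericyte pool.

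Other genes of the filament and of calcium storage differed between the 2 mural types to unlike degrees. Cnn1, calponin, had a median of 144 CPM and Pln, phospholamban, which restrains the calcium pump of the sarcoplasmic reticulum, one of 669 CPM. In pericytes both medians were 0. Lmod1, a leiomodin that starts actin filaments, had a median of 397 CPM against 6.76, and Des, the intermediate filament desmin, 834 against 136. Casq2, a calcium store protein, was an exception with 82.4 CPM against 97.5, above pericytes in 3 of 12 pools. Vcl, vinculin of adhesion sites, was above in 4 of 12 pools (293 CPM against 348).

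**Figure D2:**
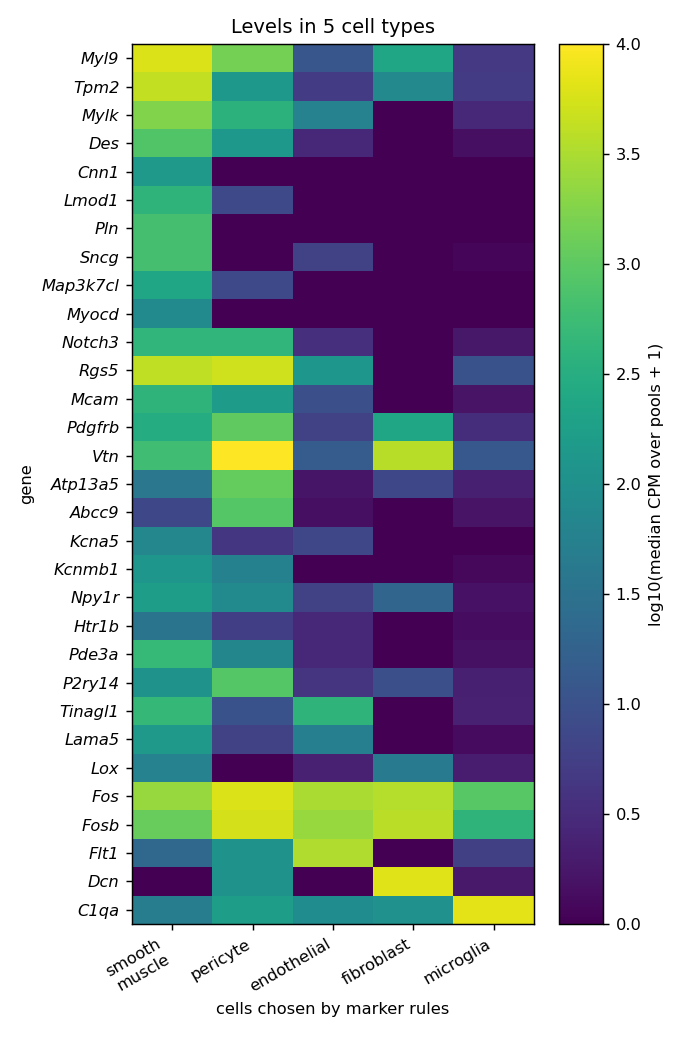
Level of 31 genes (rows) in smooth muscle cells and 4 other cell types chosen by marker rules (columns), as log10 of the median CPM over pools plus 1. The contractile genes at the top, from Myl9 to Map3k7cl, are brightest in smooth muscle cells, Vtn and Abcc9 in pericytes, and Dcn and C1qa in fibroblasts and microglia.

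Among transcription factors and Notch genes the ratio to pericytes varied from gene to gene. Myocd, which encodes myocardin, stood at 17.6 to 96.5 CPM (median 80.8) and was at 0 in every pericyte pool. Its partner Srf had a median of 53.9 CPM against 38.9, with 11 of 12 pools above. The Notch pathway, through which vessel walls keep mural cells mature, was split: the receptor Notch3 was alike (428 CPM against 432, above in 8 of 12 pools), while the ligand Jag1 (157 against 65.5) and the target Hes1 (420 against 172) were above pericytes in all 12 pools. Of 20 factors and Notch genes measured, 3 were above pericytes in all pools and 1 below, and the median log2 ratio was 0.14. Of the 12 found in at least 25% of smooth muscle cells 2 were above, against 32.8% of all such genes, and nothing is read from these counts.

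Of the 17 genes counted as pericyte or shared mural markers, Kcnj8, Abcc9 and Vtn had chosen the pericytes and were below them in all pools by that choice. The receptor Pdgfrb, through which endothelial cells recruit mural cells, had a median of 296 CPM against 1036 in pericytes. Vtn, the adhesive plasma and matrix protein vitronectin, had 590 against 9758, and Atp13a5, a transport ATPase, 37.8 against 1131. Both Pdgfrb and Atp13a5 were below pericytes in each pool. Of the 17 genes 6 were below in all pools, the 3 that chose the pericytes among them, and 1 was above. The one above was Mcam, a cell adhesion molecule, with 399 CPM against 159. Of the 12 found in at least 25% of smooth muscle cells, 2 were below or equal in all pools and 1 above, and nothing is read from these counts. Rgs5, which speeds the end of G protein signals and is often used as a pericyte marker, did not separate the types: 4109 CPM against 5185, above in 6 of 12 pools.

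Of 23 channel and calcium genes 6 were above pericytes in all 12 pools, and of 33 vasoactive genes 6. Among the genes found in at least 25% of smooth muscle cells, the set to which the 32.8% applies, these were 3 of 7 channel genes and 5 of 12 vasoactive genes, and nothing is read from these counts. The median log2 ratio of the channel list was 0.22. Among the 6 channel genes were Kcna5, a voltage-gated potassium channel (70.8 CPM against 3.28), Kcnmb1, the beta subunit of the large calcium-activated potassium channel (124 against 56.4), and P2rx1, the ATP-gated channel of sympathetic transmission (41.1 against 5.55). Itpr2, a receptor that releases stored calcium, was below in all pools (19.1 against 205), while the L-type calcium channel Cacna1c was above in 9 of 12 (76.6 against 71.3). Among the receptors, Npy1r for neuropeptide Y (168 against 81.3) and Htr1b for serotonin (33.1 against 4.51) were above in all pools. Ednra, the endothelin receptor, was above in 6 of 12 (128 against 137).

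The vasoactive and the matrix list both had a median log2 ratio to pericytes of 0. The phosphodiesterases Pde3a (475 CPM against 68.5) and Pde5a (366 against 178), which break down cyclic AMP and cyclic GMP, were above pericytes in all 12 pools. Gucy1b1, a subunit of the guanylate cyclase that senses nitric oxide, was above in 2 of 12 (400 against 780). Of 31 matrix and adhesion genes 9 were above in all pools. Of the 12 found in at least 25% of the cells 5 were, against 32.8% of all such genes, and nothing is read from these counts. Among the 9 were Eln, elastin (40.0 against 0.636), Lox, which crosslinks it (58.7 against 0), and the laminin chain Lama5 (146 against 4.93). Nid1, a linker of the basement membrane, was above in 2 of 12 (80.9 against 519).

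Rgs5 was among the genes that varied most between smooth muscle cells. Cells were thinned to 1000 UMIs each, the 231 marked cells were left out, and the variance of each of 1571 genes was divided by its mean (the Fano factor, near 1 for pure counting noise). The median gene had 1.03. Rgs5 had a median over pools of 8.05 (4.27 to 11.8), second to the nuclear RNA Malat1 with 12.0. The stress gene Hspa1a (6.48), the calcification inhibitor Mgp (5.58) and the immediate early gene Fos (3.48) followed with others. Rgs5 varied with Vtn (Pearson r = 0.40 across the 2184 cells, within pools) and with Higd1b, a gene known from mural cells (r = 0.26), and not with Mgp (r = 0.02). It also varied against Acta2 (r = -0.40), so the cells rich in Rgs5 were lower in a gene that chose them. These cells share libraries, and the values are descriptions.

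Smooth muscle cells with more Rgs5 more often held Vtn, Higd1b and Notch3 and less often Cnn1, Eln and Pln. These classes were chosen after the data had been seen, and the shares are descriptions. Of the 2184 cells, 476 had no Rgs5 UMI among 1000, 1243 had 1 to 9 and 465 had 10 or more. Vtn was found in 6.93%, 31.5% and 72.7% of these 3 classes, and Notch3 in 27.5%, 35.2% and 50.8%. Cnn1 went the other way, with 29.4%, 13.8% and 0.860%, as did Eln with 9.24%, 3.94% and 0.215%. Des did not follow Rgs5 (62.0%, 58.6% and 60.2%), and the pericyte gene Abcc9 was in at most 1.29% of any class.

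The kit class, called from shared barcodes, moved with the Rgs5 classes and was looked at separately. Class A is made up of whole batches and holds no early pool, so kit class cannot be told apart from batch here. Cells with 10 or more Rgs5 UMIs made up 8.18% to 10.2% of smooth muscle cells in the class A pools and 17.9% to 42.1% in the class B pools. Within class A, Vtn was in 6.25%, 31.8% and 67.1% of the 3 classes and Cnn1 in 30.4%, 15.6% and 1.43%. Within class B the same shares were 7.54%, 31.2% and 73.7% for Vtn and 28.6%, 12.7% and 0.759% for Cnn1. For Vtn and Cnn1 the order was thus the same within each kit class, and also within each region, where Vtn went from 8.26% to 80.6% in the motor cortex cells and from 5.81% to 62.8% in the dorsal striatum cells. Pln did not keep the order in the motor cortex, with 45.4%, 47.0% and 27.9%.

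**Figure D3:**
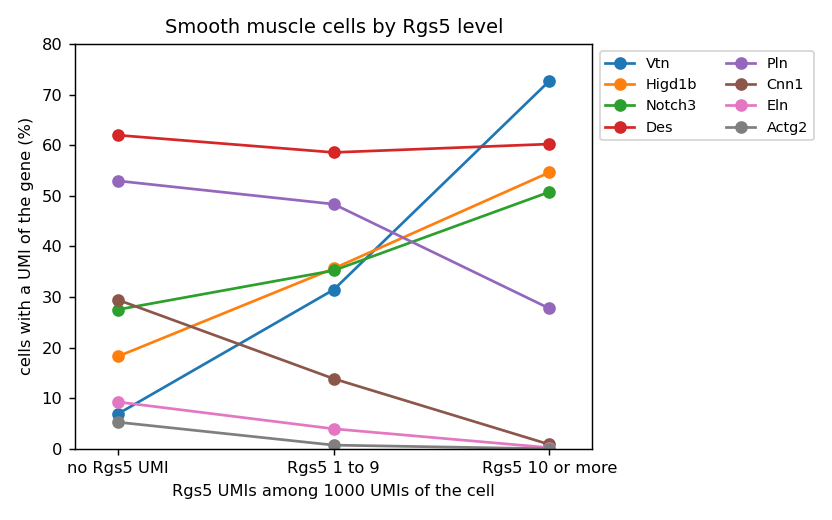
Percent of the 2184 unmarked smooth muscle cells with a UMI of 8 genes, by their number of Rgs5 UMIs among 1000 UMIs. Vtn climbs from 6.93% to 72.7% and Higd1b from 18.3% to 54.6%, while Cnn1 goes from 29.4% to 0.860% and Pln from 52.9% to 27.7%.

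Between regions, single genes of smooth muscle cells differed. Tbx15, Tfap2b, Vtn, Art3 and Lipg were higher in motor cortex cells and Id1 was lower. In all, edgeR's quasi-likelihood test with Benjamini-Hochberg adjustment called 316 of 7677 genes at an adjusted p under 0.05 (4.12%), of which 125 were higher in the motor cortex (1.63%) and 191 lower (2.49%). DESeq2 called 266, of which 247 were shared. Without the 231 marked cells edgeR called 44 of 6362 (0.692%), 30 higher (0.472%) and 14 lower (0.22%), of which 39 were among the 316. Of the 316, 150 were still tested there and 145 kept their direction. Values below are log2 CPM of the UMIs summed over a pool's smooth muscle cells.

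Tbx15 (ENSMUSG00000027868, chr3:99240381-99354259), a T-box factor of mesenchymal development, stood at 5.10 to 6.27 in the motor cortex pools (median 5.84) and at 4.01 to 4.61 in the dorsal striatum pools (median 4.33). The regions did not overlap, which held for 139 of the 7677 genes (1.81%). The log2 fold change was 1.67 ± 0.24 (SE), with an edgeR adjusted p = 0.000315, and 1.45 without the marked cells (adjusted p = 0.00107). In pericytes of the same pools Tbx15 averaged 23.0 CPM in the motor cortex and 8.73 in the dorsal striatum, with overlapping pools, and the difference between the cell types was not tested.

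Tfap2b (ENSMUSG00000025927, chr1:19208914-19238576), the AP-2 beta factor known from neural crest, stood at 4.80 to 5.68 in the motor cortex (median 5.52) and at 3.27 to 4.45 in the dorsal striatum (median 4.04). Every motor cortex pool was above every dorsal striatum pool. Its log2 fold change was 1.69 ± 0.27, with an edgeR adjusted p = 0.000928, and 1.51 without the marked cells (adjusted p = 0.00372). Pericytes of the same pools averaged 19.9 CPM of Tfap2b in the motor cortex and 8.96 in the dorsal striatum. Their pools overlapped, and the difference between the cell types was not tested.

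Vtn (ENSMUSG00000017344, chr11:78499091-78502324) stood at 9.40 to 10.70 in the motor cortex (median 10.06) and at 8.46 to 9.32 in the dorsal striatum (median 8.73). Its log2 fold change was 1.27 ± 0.19, with an edgeR adjusted p = 0.000428, and 1.14 without the marked cells (adjusted p = 0.000388), where the regions overlapped. Pericytes, which were chosen in part on Vtn and hold much more of it, averaged 9286 CPM (SD 5367) in the motor cortex and 8942 (SD 3923) in the dorsal striatum. The choice bears on these levels, and the difference between the cell types was not tested. Rgs5, which varied with Vtn from cell to cell, had a log2 fold change of 0.56 ± 0.18 and missed the threshold (adjusted p = 0.0946).

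Art3 (ENSMUSG00000034842, chr5:92331827-92414628), a membrane-bound protein of the ADP-ribosyltransferase family, stood at 5.85 to 7.11 in the motor cortex and at 4.63 to 5.55 in the dorsal striatum, without overlap (log2 fold change 1.14 ± 0.19, edgeR adjusted p = 0.00113). Vtn and Art3 were the 2 genes called among 14 tested pericyte and shared mural genes, with and without the marked cells, against 4.12% and 0.692% of all genes. The median of that list was 0.31, and 0.14 without the marked cells, against -0.01 for all genes. Lipg, endothelial lipase, had an adjusted p = 0.00208 by edgeR, with a median of 5.78 against 4.08 and no overlap of the regions.

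Id1 (ENSMUSG00000042745, chr2:152736251-152737410), an inhibitor of basic helix-loop-helix factors that bone morphogenetic proteins induce, was lower in the motor cortex. Its pools stood at 6.20 to 7.25 there (median 6.74) and at 7.57 to 8.83 in the dorsal striatum (median 7.86), without overlap. The log2 fold change was -1.18 ± 0.20, with an edgeR adjusted p = 0.00158, and -1.19 without the marked cells. In endothelial cells of the same pools Id1 averaged 1292 CPM in the motor cortex against 2024 in the dorsal striatum, without overlap. How many of all genes show no overlap in endothelial cells was not counted. In pericytes Id1 averaged 88.2 against 92.8, and these differences were not tested.

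Fos (ENSMUSG00000021250, chr12:85473890-85477273), the immediate early gene whose promoter drives CreER in the cortical mice, was also lower in motor cortex smooth muscle cells. The pools stood at 9.38 to 11.61 in the motor cortex (median 10.46) and at 11.12 to 12.24 in the dorsal striatum (median 11.67), and they overlapped. The log2 fold change was -1.16 ± 0.23 (edgeR adjusted p = 0.00654). The call was lost without the kit term (adjusted p = 0.0681), under a stricter cell filter (0.0802) and in the class B pools alone (-0.72, 0.138). Fosb, Egr1 and Junb, which respond to many of the same stimuli, had log2 fold changes of -0.16, -0.27 and 0.00 and were not called. Fos averaged 1784 CPM in the motor cortex against 4204 in the striatum in endothelial cells, and 613 against 1179 in microglia. In pericytes it averaged 4669 against 8197, and over all passing cells 405 against 953. The pools did not overlap in endothelial cells or over all passing cells, and none of these differences was tested. How many of all genes show no overlap in those cells was not counted. Arc, the other driver gene, was not called in smooth muscle cells (-0.32, edgeR adjusted p = 0.822), where it averaged 16.8 CPM in the motor cortex against 20.1. Over all passing cells Arc averaged 102.5 CPM in the motor cortex against 53.1 in the striatum, without overlap. In endothelial cells it averaged 26.7 against 6.52, also without overlap. In pericytes it averaged 40.3 against 29.0 and in microglia 8.47 against 4.98, with overlapping pools. These differences of Arc were not tested.

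**Figure D4:**
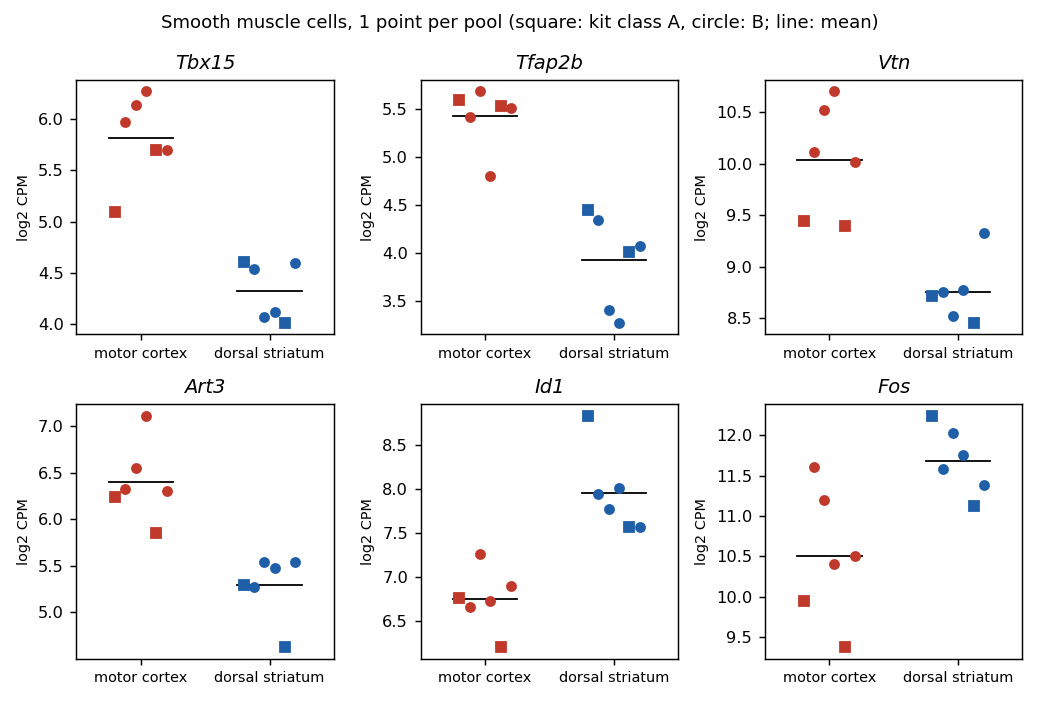
Log2 CPM of 6 genes in smooth muscle cells, 1 point per pool, by region; black lines are means of 6 pools, squares are kit class A and circles class B. The regions do not overlap for Tbx15, Tfap2b, Vtn, Art3 and Id1, and they overlap for Fos. In CPM without edgeR's scaling between pools Vtn overlaps, at 570 in motor cortex late replicate 1 and 611 in dorsal striatum late replicate 2.

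The labels give a batch name for each library, and 2 batches hold a pool of each region, 1 of early and 1 of late mice. Within these, the motor cortex minus striatum difference was 2.15 and 1.10 for Tbx15 and 1.52 and 1.44 for Tfap2b. It was 1.93 and 0.69 for Vtn, 1.64 and 0.76 for Art3, and 0.45 and 1.05 for Lipg. For Id1 it was -1.29 and -0.68, and for Fos -1.35 and -0.87. Each of these genes had the same direction within both batches, with 1 pool against 1.

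A fit with the batch as a block in place of the kit class, added after the data had been seen and left with 3 residual degrees of freedom, called 156 of 8392 genes between regions (1.86%), of which 118 were among the 316. It called 12 of 6874 (0.175%) without the marked cells. The region differences of this fit rest on the same 2 batches as the pairs above, so they are not separate evidence. Tbx15 (1.75, edgeR adjusted p = 0.0274), Vtn (1.32, 0.0445) and Art3 (1.28, 0.0322) were still called under the block, and of these Vtn alone without the marked cells as well (edgeR adjusted p = 0.0392). Tfap2b (1.62, edgeR adjusted p = 0.142), Id1 (-0.99, 0.134), Lipg (0.77, 0.631) and Fos (-1.10, 0.126) were not called under the block, and Fos was without the marked cells (-1.06, 0.0357).

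Of 25 contractile genes tested apart from those of the rule, 1 was called between the regions, near the 4.12% of all genes. It was Casq2 (0.70 ± 0.18, edgeR adjusted p = 0.0394), and none was called without the marked cells, where Casq2 had 0.62 and an adjusted p = 0.0876. With 1 pool left out Casq2 was called in 4 of 12 fits by edgeR, with adjusted p from 0.00687 to 0.110. The list's median was 0.05. None of 22 matrix and adhesion genes was called, with 3 at an unadjusted p under 0.05, where 14.8% of all genes tested lay. Of 19 channel genes, Ano1, a calcium-activated chloride channel (0.70, adjusted p = 0.00900 by edgeR), and Atp2a3, a calcium pump (0.86, adjusted p = 0.00527), were higher in the motor cortex, and Atp2a3 was still called without the marked cells (adjusted p = 0.0461). With the batch as a block edgeR called neither, with Ano1 at 0.77 (adjusted p = 0.249) and Atp2a3 at 0.77 (adjusted p = 0.335).

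The other lists held 1 or 2 calls each, and most were lost with the marked cells. Of all genes 4.12% were called, and 0.692% without the marked cells, and nothing is read from the counts of such short lists. Of 19 transcription factor and Notch genes, Mef2c was called (0.62), which without the marked cells had 0.31 and an adjusted p = 0.455. Of 18 vasoactive genes, Pde1a was higher and Rgs2 lower, with 0.18 and -0.04 and adjusted p = 0.773 and 0.999 by edgeR without the marked cells. Of 24 immediate early and dissociation genes, Fos and Cyr61, an early matrix gene, were lower, and without the marked cells Fos alone was called. Ccl2, a chemokine, was the 1 call among 9 cytokine genes (3.06, adjusted p = 0.0446) and had 2.06 and an adjusted p = 0.487 without them. With 1 pool left out Pde1a, Rgs2 and Cyr61 were each called in 4 of 12 fits by edgeR. Ccl2 was called in 5 of 12, with values from 2.55 to 5.55, the highest without dorsal striatum late replicate 1.

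Of 36 tested genes in the marker lists of other cell types 14 were among the 316 calls, against 4.12% of all genes tested. Calls with the smallest adjusted p included Slc17a7, the vesicular glutamate transporter, and Cck, a neuropeptide, on the motor cortex side. On the dorsal striatum side were Penk, Tac1 and Ppp1r1b of striatal projection neurons, Sox11 and Meis2, known from young neurons, and Rsph1 of cilia. All 6 of the striatal neuron markers and all 4 ependymal markers were called lower in motor cortex smooth muscle cells. The summed striatal neuron markers ran from 152 to 284 CPM in the motor cortex pools and from 674 to 2094 in the dorsal striatum pools. Without the marked cells these ranges were 139 to 259 and 193 to 406. The summed ependymal markers ran from 0 to 2.42 CPM, with Ccdc153 and Tmem212 at 0, against 52.5 to 1669. Without the marked cells the ependymal markers reached at most 25.4 CPM in the dorsal striatum. Cells were marked on these same genes, so this lower value follows from the choice.

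Sox11 and Cck also had unlike levels between regions in microglia. Sox11 averaged 9.77 CPM in motor cortex and 78.3 in dorsal striatum smooth muscle cells, and 4.74 against 79.4 in microglia. Cck averaged 195 against 5.08 in smooth muscle cells and 56.1 against 1.55 in microglia. Lipg averaged 0.531 against 0.516 CPM in microglia and 5.31 against 1.57 over all passing cells, and Tfap2b 0.197 against 0.203 and 1.16 against 0.700. The part of RNA from other cells in the region calls was not tested.

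Across stages, no gene of smooth muscle cells passed the test in the fit with kit class, and a small number did with batch as a block. The 3 stage comparisons, which share pools, were fitted over both regions. Of 7677 genes edgeR called 0 (0%) between early and control pools, where 378 had an unadjusted p under 0.05. It also called 0 for late versus control (430 at that p) and 0 for late versus early (297 at that p). DESeq2 also called 0 in each. With the batch as a block, edgeR called 46 of 8392 genes between early and control (0.548%), 43 of them higher, and these held all 4 ependymal markers. It called 0 for late versus control and 3 for late versus early (0.0357%). Without the marked cells the block gave 4 of 6874 (0.0582%), 23 (0.335%) and 12 (0.175%) in the same order. Under the block, early versus control drew on class B batches alone and late versus control on class A batches alone. No batch held both an early and a late pool, so late versus early compared differences from unlike batches. Between hemispheres of trained mice edgeR called 0 of 7425 genes (0%), with 209 at an unadjusted p under 0.05, and DESeq2 0.

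The listed genes with the smallest unadjusted p in late against control were a Notch ligand and a potassium channel, neither near the adjusted threshold. Jag1 stood at 7.56 and 8.05 in the motor cortex control pools and at 6.48 and 7.36 in the late ones, and at 7.50 and 7.71 against 6.19 and 7.18 in the dorsal striatum. All 4 late pools were below all 4 control pools, and for how many of all genes this holds was not counted. The log2 difference of -0.89 ± 0.22 had an edgeR adjusted p = 0.848, a value that Fos and other listed genes shared. With the batch as a block the Jag1 difference was -1.47 ± 0.30 (edgeR adjusted p = 0.258). Without the marked cells it was -1.48 ± 0.29 under the block, where it was called (edgeR adjusted p = 0.00878). Kcna5 had -0.91 ± 0.24 (adjusted p = 0.848 by edgeR), with motor cortex control replicate 1 at 6.24 next to a highest late pool of 6.25. Within batches, late minus control was -1.57 and -1.31 for Jag1 and -0.29 and -0.95 for Kcna5. The block takes its late differences from these same pairs of pools, so they are not separate evidence. Of 19 transcription factor and Notch genes 6 had an unadjusted p under 0.05 in late against control, each on the lower side, where 2.85% of all genes had such a p. The median of that list was -0.25, and -0.16 without the marked cells, against 0.01 for all genes.

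The late change differed between regions for 3 of 8392 genes (0.0357%) in edgeR's interaction test, all of them haemoglobin genes, and the early change for 0 (0%), with 821 at an unadjusted p under 0.05.

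Most other lists also had medians below that of all genes in late against control. The contractile list had medians of -0.10 in early and -0.20 in late against control, with 0 and 1 of 25 genes at an unadjusted p under 0.05. Without the marked cells these medians were 0.06 and -0.09. Of all 7677 genes, 378 in early and 430 in late against control had an unadjusted p under 0.05. In late against control 219 of these were lower (2.85% of all genes), and nothing is read from the list counts. The late median was -0.20 for the vasoactive list, with 3 of 18 genes lower at that p, and -0.19 for the matrix list, with 0 of 22, and without the marked cells both were -0.06. The vasoactive 3 were Npy1r (-0.62), Htr1b (-0.83) and Gucy1a1 (-0.44), none of which passed edgeR's adjusted test. The immediate early list had medians of -0.23 in both comparisons, with 5 of 24 genes lower at an unadjusted p under 0.05 in the late one (-0.15 and -0.21 without the marked cells), and Fos itself -0.85 ± 0.28 in late against control (edgeR adjusted p = 0.848). Beside these, all 4 ependymal markers were on the higher side in early against control at an unadjusted p under 0.05, with a list median of 3.23, and 3 of the 4 were in late against control, with a list median of 2.27. The ependymal-marked cells numbered 1 to 18 per striatal pool, and their part in these values was not tested. In the hemisphere comparison Col18a1, a basement membrane collagen, had 0.70 ± 0.19 with an edgeR adjusted p = 1.00.

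Reporter RNA was found in smooth muscle cells of every pool. The files count the added features wpre, a stabilising element of the Ai9 transcript, and tdtomato, and 693 cells held a wpre UMI and 21 a tdtomato UMI. The share of cells with either ran from 15.7% to 40.0% in the motor cortex pools (median 28.6%) and from 13.7% to 39.9% in the dorsal striatum pools (median 33.4%). Both regions had a mean of 29.2% (SD 8.05 and 10.2, n = 6 each), and they differed by 0.00977 points (exact permutation p = 0.998). With each cell thinned to 1000 UMIs the means were 16.0% and 13.4% (difference 2.64 points, exact permutation p = 0.327).

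Microglia, which are neither neurons nor vessel cells, served as a comparison. They were chosen with little or no Snap25, a neuron gene, a limit set for no other type here. Its part in the comparison was not tested. Microglia also carry Fos RNA, so whether any of them bear the label was not tested. They held a reporter UMI in 3.01% to 9.55% of cells over pools (median 5.41%) at a mean pool median of 1884 UMIs, against 29.2% of smooth muscle cells at 2271 UMIs. Thinned to 1000 UMIs the shares were 3.06% and 14.7%, a difference of 11.7 points that was positive in 12 of 12 pools. Its exact sign-flip permutation p was 0.000488, the smallest 12 pools can give, and 0.00146 after adjustment over 3 comparisons. Among vascular cells, smooth muscle cells were below pericytes. Thinned endothelial cells had 14.4% (difference 0.346 points, higher in 6 of 12 pools, exact permutation p = 0.819). Pericytes had 18.2%, which put smooth muscle cells 3.51 points lower, with 3 of 12 pools higher (exact permutation p = 0.0181, adjusted 0.0271).

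**Figure D5:**
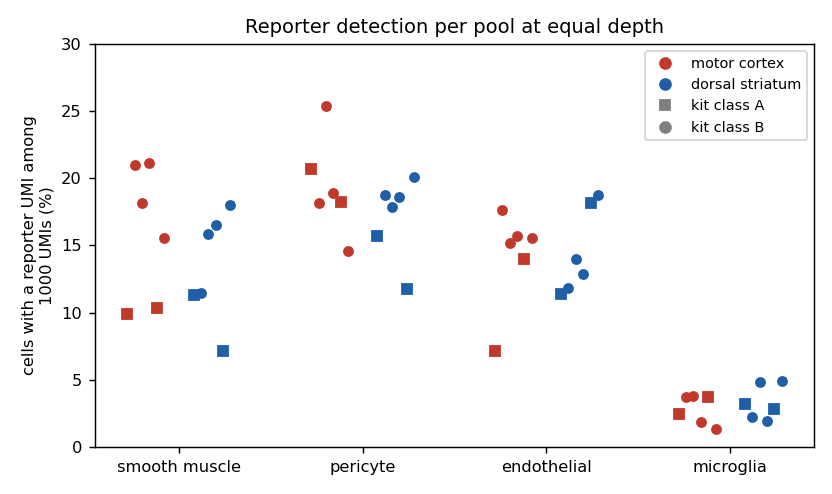
Percent of cells with a wpre or tdtomato UMI after thinning to 1000 UMIs, 1 point per pool, for smooth muscle cells, pericytes, endothelial cells and microglia. Red is motor cortex and blue dorsal striatum, squares are kit class A and circles class B. All microglia points lie at or under 4.92%, below every smooth muscle point.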

How the data were processed

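The values the authors deposited are raw UMI counts for each gene in each barcode. Reads were processed with Cell Ranger 3.1.0 on GRCm38 (mm10), per the submitters' processing notes, and per the file headers the matrices were written by software version 3.0.2. The annotation and the calling of cells are not given in the sources used here. Positions are from GENCODE M21 (GRCm38). The smooth muscle cells and the gene lists were chosen with earlier results of these data known.

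Counts of the smooth muscle cells were summed per pool, both hemispheres together (100 to 309 cells). edgeR 4.0.16 (TMM, filterByExpr, quasi-likelihood test) was fitted over all 12 pools with region, stage and kit class, and p-values were adjusted over all genes by Benjamini-Hochberg. For hemispheres, libraries of the 8 trained pools were fitted with a term for each pool. Log2 CPM is edgeR's, with a prior count of 1. DESeq2 1.42.0 was the alternative, and the tests ran in R 4.3.3 and Python 3.11.15 with scipy 1.17.1. edgeR's use here was tested on simulated data. Shares were compared with exact permutation tests over pools, two-sided. Pools of a group are listed as separate samples of 2 mice each, and p-values measure only the spread between these pools, which may in part be technical. Wilson intervals (95%) and limits from a count of 0 (3 counts) cover counting error only.

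Scrublet (scanpy 1.11.5) gave each barcode a doublet score within its library, the top 0.8% per 1000 barcodes were presumed doublets, and they were kept in the counts unless stated. Kit classes were called from barcodes shared between libraries: per 1e6 pairs of barcodes, pools of class A shared 1.28 to 1.49, pools of class B 0.155 to 0.401 and pools of different classes at most 0.0514. Comparison cells were passing cells chosen on markers (pericytes on Kcnj8, Abcc9 and Vtn, endothelial cells on Cldn5, Flt1 and Pecam1, fibroblasts on Dcn and collagen I, microglia on Csf1r, Cx3cr1, P2ry12 and Tmem119), all with little or no Acta2. Microglia alone also had to hold little or no Snap25.

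Named were the genes of the lists, the 30 genes farthest above all other passing cells, and up to 15 called genes per direction with the smallest adjusted p. Tfap2b, Lipg and Id1 fall outside this rule and were chosen after their values were seen, among calls that remained without the marked cells. The reporter tests against microglia, endothelial cells and pericytes, every value without the cells marked by another type, and the fit with the labels' batch name as a block in place of kit class, were added after the data had been seen. Some genes are not reported here.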

Additional observations from a re-analysis of the deposited data

Results flagged for a closer look

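In groups of 6 pools, a pool was picked out when its gap to the nearest other pool was large against the whole range of the group, by Dixon's 95% limit. Chance alone picks about 1 in 20 groups, and 8 of 46 were picked. The values are log2 CPM in smooth muscle cells. In the motor cortex, early replicate 2 was low for Tfap2b (4.80, others 5.42 to 5.68), and late replicate 1 was low for Mef2c (9.27, others 9.55 to 9.71). In the dorsal striatum, late replicate 2 was high for Vtn (9.32, others 8.46 to 8.77), and control replicate 1 was high for Id1 (8.83, others 7.57 to 8.01). Late replicate 1 of the dorsal striatum was picked for 4 genes: low for Art3 (4.63, others 5.27 to 5.55), Casq2 (5.73, others 6.29 to 6.52) and Mef2c (8.22, others 8.95 to 9.22), and high for Ccl2 (5.88, others 0.96 to 2.54). This pool also had the highest share of cells with markers of another type, at 20.9%, whose part in these values was not tested.

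The change from control to late differed between regions for 3 of 8392 genes (0.0357%) in edgeR's interaction test, with 368 at an unadjusted p under 0.05, and for 0 of 8392 from control to early, with 821 at an unadjusted p under 0.05. All 3 were haemoglobin genes: Hbb-bt with a log2 difference of 8.92 (adjusted p = 0.000186), Hba-a1 with 5.69 (adjusted p = 0.0362) and Hba-a2 with 6.82 (adjusted p = 0.00556). Hbb-bt stood at 9.82 log2 CPM in motor cortex late replicate 1 and at 9.39 in dorsal striatum control replicate 1, at 6.06 in motor cortex control replicate 1, and at 0.96 to 3.74 in the other 9 pools. The summed erythrocyte markers ran from 68.4 to 10340 CPM in the motor cortex pools and from 39.7 to 5177 in the dorsal striatum pools. The part of red blood cell RNA in these values was not tested.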

How the results depend on the processing

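The region comparison gave 316 genes. It gave 1077 without a filter on low counts (22487 genes tested), 185 without the kit term, 76 with presumed doublets removed, 197 under a stricter cell filter, 185 with at least 8 Acta2 UMIs and 44 without cells marked by another type. Leaving out 1 pool gave 236 to 433. Without the filter early against control gave 128, late against control 57, late against early 37 and the hemispheres 20, and class B pools alone gave 1 in late against early. Leaving out 1 pool gave 0 to 21 in early against control (21 without dorsal striatum early replicate 2), 0 to 2 in late against control (without either striatal early replicate), 0 to 0 in late against early and 0 to 2 between hemispheres (2 without dorsal striatum early replicate 1).

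The region difference in share turned to 0.0189 points with doublets removed, 0.0119 with at least 8 Acta2 UMIs, 0.0460 after thinning, 0.0694 without marked cells and 0.252 in class B pools, and ran from -0.234 to 0.299 with 1 pool left out. With 1 pool left out the trained difference ran from -0.487 to 0.845 and the hemisphere difference from -0.0379 to 0.278, while the class B pools gave 1.29 and 0.249 and the stricter filter 0.944 and 0.348. The reporter difference was -2.66 in class B pools and ran from -3.08 to 2.71. The cause of these changes was not tested. For 20 named genes, 367 of 498 alternative values kept direction and call, 130 kept the direction only and 1 reversed. Depth limits low genes, since the median smooth muscle cell held 2209 UMIs. The replicate block by batch name, added after the data were seen, gave 156 genes between regions, 46 for early versus control, 0 for late versus control and 3 for late versus early. Without marked cells the block gave 12, 4, 23 and 12, and Rgs2 between regions turned to 0.043. Pool numbers themselves follow accession order and pair no pools.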
